A study of Mus musculus with 2 samples.

Results

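Mitochondrial biogenesis, the making of new mitochondria, is steered in brown fat by a short chain of nuclear genes. Of these, 10 were followed here in brown fat RNA of wild-type (WT) and double-knockout (DKO) mice: the coactivators Ppargc1a and Ppargc1b, the estrogen-related receptors Esrra, Esrrb and Esrrg, the nuclear respiratory factors Nrf1 and Gabpa, and the mitochondrial DNA transcription factors Tfam, Tfb1m and Tfb2m. The 10 genes were chosen with earlier results of these data known, and their probes were then taken by name. Every non-control spot whose gene name in the array file was one of the 10 was kept. This gave 17 probes out of 41174 distinct probes on the array. Of the 10 genes, 4 had 1 probe, 5 had 2 probes and Gabpa had 3.

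The tissue was interscapular brown fat of male C57BL/6 mice, 4 per genotype, 2 to 3 months old by the sample labels and 8 to 12 weeks by the series text, collected near circadian time 20. The genes lost in DKO include Rora, a nuclear receptor gene, and the labels name no Cre driver and no treatment in either genotype. Each of 2 whole mouse genome arrays carried both genotypes, with DKO in Cy5 on what is called array 1 here and DKO in Cy3 on array 2. The sources used here do not say whether the mice were pooled or whether the arrays shared extracts, so each genotype counted as 1 replicate and no test was possible. An SD over the 2 arrays (n = 2 throughout) covers dye and measurement error. Whether it also holds differences between extracts is not known, and it cannot be read as the spread between animals.

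Brown adipocytes are packed with mitochondria, in which Ucp1 lets protons leak back to make heat. PGC-1 alpha and PGC-1 beta, the products of Ppargc1a and Ppargc1b, bind no DNA themselves. They are recruited by transcription factors, among them the estrogen-related receptors and the nuclear respiratory factors, to genes of oxidative metabolism. The nuclear respiratory factors in turn act on Tfam, Tfb1m and Tfb2m, whose proteins enter the mitochondrion and serve the expression of its own DNA.

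Promoters of 9 of the genes were taken from the RefSeq table of assembly GRCm38.p6, and no Ppargc1b promoter was used. The 3 printed here are that of Ppargc1a, whose probe had the highest mean ratio of the set over both arrays (though not on array 2), and those of Gabpa and Tfam, which hold the letters CCGGAAG bound by GABP and other ETS factors. Each line gives the 250 bases before a transcription start, 5′ to 3′ on the gene's strand, with capitals marking CCGGAAG or its reverse complement CTTCCGG. Ppargc1a lies at chr5:51567726-51567975 on the minus strand, Gabpa at chr16:84834874-84835123 on the plus strand and Tfam at chr10:71238045-71238294 on the minus strand.
Ppargc1a: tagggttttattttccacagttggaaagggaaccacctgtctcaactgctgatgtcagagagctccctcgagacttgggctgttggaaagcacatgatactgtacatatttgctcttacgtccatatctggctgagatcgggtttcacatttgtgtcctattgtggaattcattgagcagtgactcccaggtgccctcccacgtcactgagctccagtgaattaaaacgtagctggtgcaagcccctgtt
Gabpa: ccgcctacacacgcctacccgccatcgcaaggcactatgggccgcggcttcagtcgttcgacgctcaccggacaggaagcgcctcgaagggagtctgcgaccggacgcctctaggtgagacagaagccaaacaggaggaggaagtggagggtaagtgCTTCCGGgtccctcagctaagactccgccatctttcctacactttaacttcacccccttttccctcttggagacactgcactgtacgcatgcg
Tfam: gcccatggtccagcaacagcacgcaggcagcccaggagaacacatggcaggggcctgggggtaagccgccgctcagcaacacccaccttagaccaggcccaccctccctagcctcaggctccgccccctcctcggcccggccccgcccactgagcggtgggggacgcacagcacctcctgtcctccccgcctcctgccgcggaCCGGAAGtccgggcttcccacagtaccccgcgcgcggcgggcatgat
The element began at position -93 from the start in Gabpa and at position -47 in Tfam. In windows of the same kind with 50 bases past the start added, CCGGAAG on either strand was found in 2 of 14 windows of the 9 genes, some of which have several starts, and in 8.86% of all 32851 promoters of the table. The NRF1 letters GCGCATGCG were found in 1 of the 14 windows, that of Tfb2m, against 1.75% of all promoters. Neither AGGTCA, the core element of nuclear receptors (16.3% of all promoters), nor TCAAGGTCA, the estrogen-related receptor element that contains it (0.423%), was found in any of the 14. TGACGTCA, the cAMP response element, was also found in none, against 1.79% of all promoters. A match is a description of letters in a window and no evidence of binding.

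All 17 probes were well above background, by the scanner software's limit of 2.6 background SDs, in both genotypes on both arrays, and none was saturated. Rora, which bears on the labels, read −0.38 ± 0.04 and −0.47 ± 0.10 (log2 of DKO over WT) with its probes, lower in DKO on each array. The scanner software's ratios, which carry no added signal offset, put the same probes at −0.96 ± 0.07 and −1.52 ± 0.14. Whether these probes lie in the deleted part is not given. All 15 brown adipocyte markers were measured, but so were all 22 skeletal muscle markers with a probe and 14090 of 15926 genes with a symbol. Being measured is therefore no check of the tissue's identity. Across the 4 combinations of array and genotype, 77.6% to 85.4% of probe spots were well above background.

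None of the 10 genes changed by the size rule, which asks for a mean of at least 2-fold, at least 1.5-fold the same way on each array, and a signal well above background in the higher genotype. Over all 14090 measured genes with a symbol, 0.17% passed that rule as higher and 0.0497% as lower, so none in 10 does not set these genes apart. The coactivators had the highest mean ratios, Ppargc1a at 1.46-fold and Ppargc1b at 1.35-fold in DKO over WT. The other 8 genes had means between −0.10 and 0.20 on the log2 scale, and their 15 probes lay in the same range. Of the 10 genes, 4 lay above 0 on both arrays (Ppargc1a, Ppargc1b, Esrrb and Tfb1m), 1 lay below 0 on both (Nrf1) and 5 took opposite signs on the arrays. Over all measured genes 19.1% were above 0 on both arrays and 19.2% below. In bulk tissue, fewer cells of a type and less RNA per cell cannot be told apart.

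Ppargc1a encodes PGC-1 alpha, the cold-inducible coactivator of thermogenic and mitochondrial genes. Its processed signal, the software's background-subtracted and dye-normalised intensity in arbitrary units, was 6832 in DKO and 4575 in WT on array 1. On array 2 it was 6953 in DKO and 4455 in WT. Both DKO readings lay above both WT readings. The log2 ratio was 0.52 on the first array and 0.57 on the second, a mean of 0.54 ± 0.04. With the software's own log ratios, which carry no added signal offset, it was 0.58 and 0.64, each with a software error of 0.17. Ppargc1a was thus the only one of the 10 genes whose software ratio exceeded 2 of its own errors on both arrays, which 1.18% of measured genes did in the higher direction and 0.951% in the lower. Among the 2076 measured genes at an average log2 intensity of 9 or more, these shares were larger, 3.42% and 2.46%. Ppargc1a stood just below that limit, at 8.84. The software error covers measurement on one array and no difference between animals. Of all 14090 measured genes, 87 (0.617%) had a mean ratio at least as high, and of the 1951 genes within 0.5 log2 units of its intensity, 29 (1.49%) did. The 22 measured markers of skeletal muscle, another tissue that expresses Ppargc1a, had a median of 0.53 (0.28 on array 1 and 0.74 on array 2), and their part in the Ppargc1a value was not tested.

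Another probe, named in the file after a RIKEN clone and assigned to Ppargc1a by its RefSeq accession, gave a smaller ratio. It read 0.09 on array 1 and 0.19 on array 2, a mean of 0.14 ± 0.07, or 0.18 ± 0.14 with the software's ratios. It had the direction of the first probe on both arrays but not its size, so the 1.46-fold value rests on 1 probe.

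Ppargc1b encodes PGC-1 beta, the close relative that supports basal mitochondrial gene expression. Its signal was 9949 in DKO and 8467 in WT on array 1, and 11222 in DKO and 6940 in WT on array 2. Both DKO readings were again above both WT readings, but the ratio differed between the dye orientations. It was 0.21 with DKO in Cy5 (array 1) and 0.65 with DKO in Cy3 (array 2), a mean of 0.43 ± 0.31. A second Ppargc1b probe outside the naming rule, assigned by accession, gave nearly the same pair, 0.18 and 0.68 (0.43 ± 0.36). Of measured genes, 142 (1.01%) had a mean at least as high as the brighter probe, and 39 of 1176 (3.32%) near its intensity. The coactivators could not be ranked against each other: Ppargc1a minus Ppargc1b was 0.31 on array 1 and −0.08 on array 2, a mean difference of 0.12 ± 0.27.

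**Figure D1:**
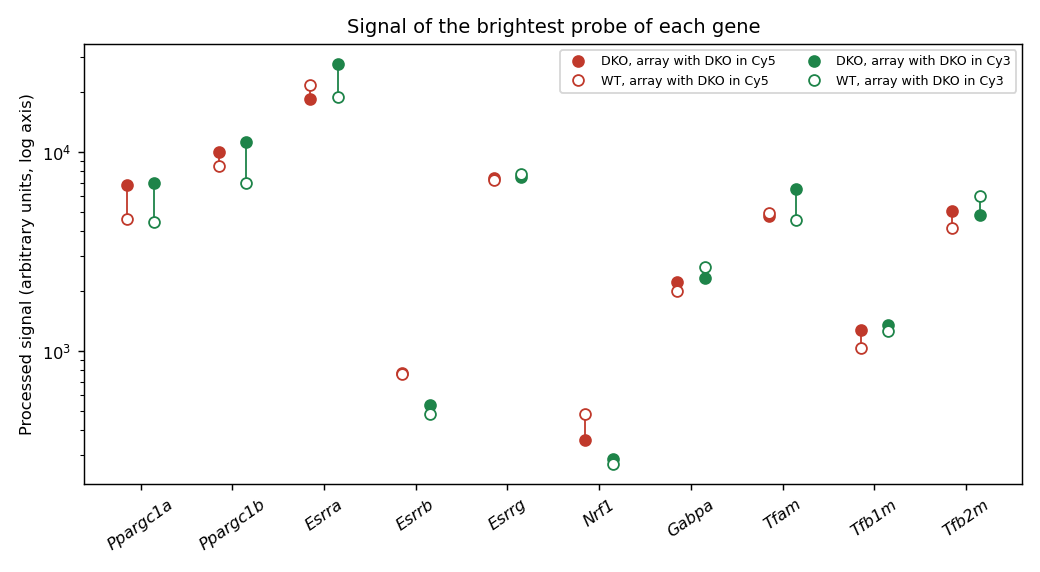
Processed signal (arbitrary units, log axis) of the brightest probe of each gene in DKO (filled) and WT (open), with a line joining the genotypes on array 1 (DKO in Cy5, red) and array 2 (DKO in Cy3, green). For Ppargc1a and Ppargc1b the filled circle is above the open one on both arrays, while for Esrra and Tfb2m the order turns between the arrays; levels of different probes are not comparable.

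The estrogen-related receptors, orphan nuclear receptors through which the PGC-1 coactivators act, showed no shared shift. Esrra, the family member best known as a PGC-1 alpha partner and itself a PGC-1 alpha target, changed sign between the arrays. Its signal was 18334 in DKO and 21547 in WT on array 1, and 27587 in DKO and 18877 in WT on array 2. The log2 ratios were −0.25 and 0.55, a mean of 0.15 ± 0.56, the widest spread among the 17 probes. The same probe read in the dye direction, as Cy5 over Cy3, had a mean of −0.40, larger in size than its genotype mean. A dimmer Esrra probe also changed sign, with −0.29 and 0.12 (−0.08 ± 0.29). No direction could be given for Esrra.

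Esrrb, a receptor better known from pluripotent cells and the inner ear, and dim here, had ratios of 0.05 and 0.01 with its brighter probe, for a mean of 0.03 ± 0.03. Its signals were 775 in DKO and 767 in WT on array 1, and 536 in DKO and 483 in WT on array 2. The genotypes differed by less than the arrays did. A second Esrrb probe read 0.08 on each array and 0.26 ± 0.02 with the software's ratios, whose errors of 0.34 and 0.35 exceeded that value.

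Esrrg, the receptor of highly oxidative tissues such as heart and brown fat, gave almost equal signals in both genotypes. The readings were 7377 in DKO and 7169 in WT on array 1, and 7451 in DKO and 7711 in WT on array 2. The ratios of 0.03 and −0.02 gave a mean of 0.00 ± 0.03. A second Esrrg probe read −0.05 and −0.11 (−0.08 ± 0.04), below 0 on both arrays.

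**Figure D2:**
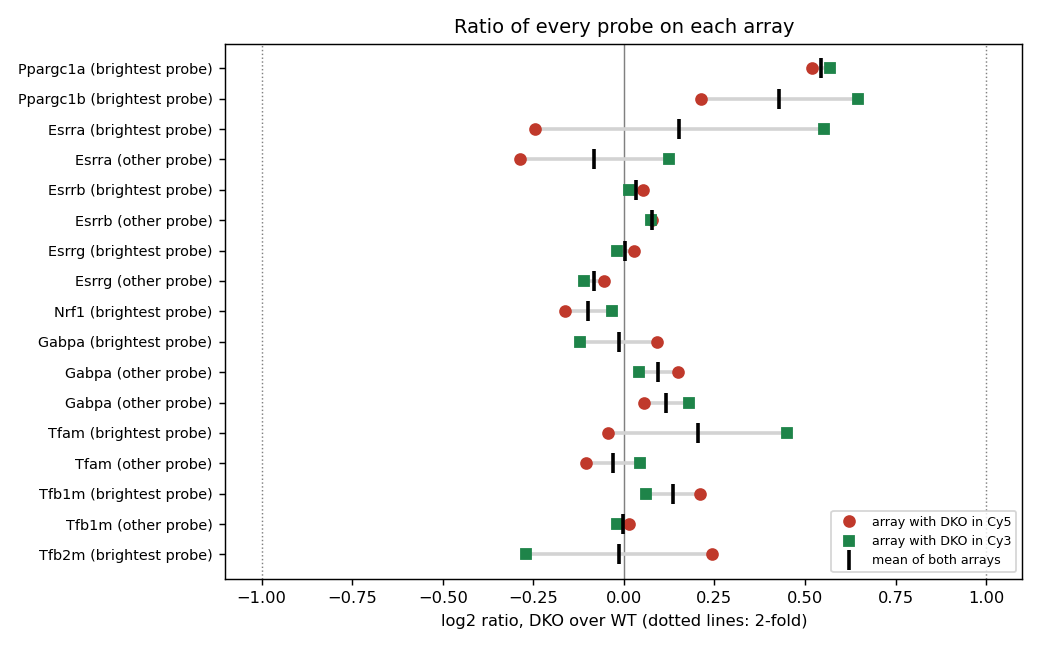
Log2 ratio of DKO over WT for each of the 17 probes on array 1 (DKO in Cy5, circles) and array 2 (DKO in Cy3, squares), with the mean as a black bar and the 2-fold lines dotted. Only the bars of Ppargc1a (0.54) and Ppargc1b (0.43) lie beyond 0.21, and no point reaches 2-fold; the pairs of Esrra and Tfb2m straddle 0.

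The nuclear respiratory factors were near 0. Nrf1, whose protein acts on genes of the respiratory chain and of the mitochondrial import machinery, had the dimmest probe of the set. Its signal was 356 in DKO and 482 in WT on array 1, and 284 in DKO and 269 in WT on array 2. The mean ratio was −0.10 ± 0.09, with −0.16 and −0.03 on the arrays. By the software the ratios were −0.44 and 0.08, with errors of 0.37 and 0.52, so the sign of the second array depended on the method. A further probe described in the file as nuclear respiratory factor read 0.02 ± 0.01, and another so described was not well above background.

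Gabpa encodes the DNA-binding subunit of GABP, also called nuclear respiratory factor 2. Its brightest probe read 2203 in DKO and 1994 in WT on array 1, and 2319 in DKO and 2627 in WT on array 2. The genotype order turned between the arrays, with ratios of 0.09 and −0.12 and a mean of −0.01 ± 0.15. Its dimmer probes were above 0 on both arrays, at 0.10 ± 0.08 and 0.12 ± 0.09. The Gabpa probes thus gave means of different sign, each within 0.12 of 0.

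The factors that act on mitochondrial DNA showed no common direction either. Tfam, which packages mitochondrial DNA and starts its transcription, and whose promoter holds the GABP letters printed above, had the highest mean of this group. Its signal was 4739 in DKO and 4899 in WT on array 1, and 6484 in DKO and 4553 in WT on array 2. The ratio was −0.04 on the first array and 0.45 on the second, a mean of 0.20 ± 0.35, with a dye-direction mean of −0.25. The higher mean thus came from 1 array. A dimmer Tfam probe read −0.03 ± 0.105, and a probe described in the file as mtTFA but outside the naming rule read 0.30 and −0.09 (0.11 ± 0.28), the opposite order of arrays. That mtTFA probe was much the brighter, at an average log2 intensity of 13.82 against 8.73 for the first Tfam probe. Ppargc1b exceeded the first Tfam probe on each array, by 0.26 and 0.19, but on array 1 its 0.21 lay below the 0.30 of the mtTFA probe.

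Tfb1m, chiefly the methyltransferase of the small mitochondrial ribosomal RNA, had signals of 1276 in DKO and 1028 in WT on array 1, and 1351 in DKO and 1260 in WT on array 2. It was higher in DKO on both arrays, at 0.21 and 0.06, a mean of 0.14 ± 0.11. Its second probe, for a cDNA clone that the file describes as unclassifiable, read 0.00 ± 0.02. Tfb2m, the partner of the mitochondrial RNA polymerase at promoters, was read by 1 probe, with 5010 in DKO and 4134 in WT on array 1 and 4783 in DKO and 6006 in WT on array 2. The ratios of 0.24 and −0.27 gave a mean of −0.01 ± 0.36, with a dye-direction mean of 0.26. A Tfb2m probe assigned by accession read 0.18 ± 0.18.

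**Figure D3:**
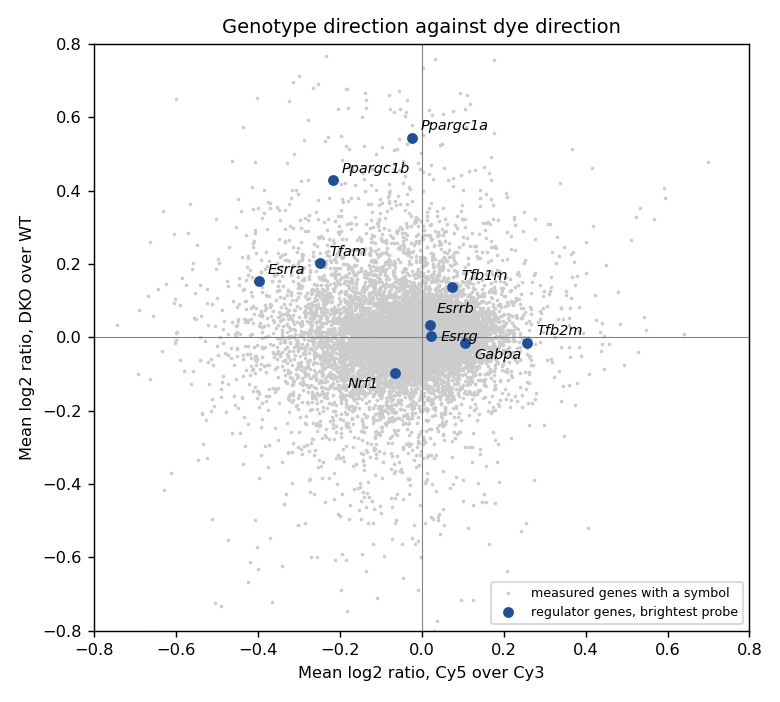
Mean log2 ratio in the genotype direction (DKO over WT, vertical) against the dye direction (Cy5 over Cy3, horizontal) for the 10 genes (blue, brightest probe) and the other measured genes (grey); both axes stop at 0.8. Ppargc1a has a genotype mean of 0.54 and a dye mean of −0.02, whereas Esrra, Tfam, Tfb2m, Gabpa and Esrrg have larger dye than genotype means.

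Ordered by mean ratio, the genes ran Ppargc1a, Ppargc1b, Tfam, Esrra, Tfb1m, Esrrb, Esrrg, Tfb2m, Gabpa and Nrf1. No neighbours in this order differed by more than the larger of their SDs over arrays. Those SDs ignore that neighbours were read on the same arrays. Taken within each array, Ppargc1b minus Tfam was 0.23 ± 0.04 and Ppargc1a minus Ppargc1b was 0.12 ± 0.27. Other neighbours were not compared in this way. The dye-direction mean was larger in size than the genotype mean in 5 of the 10 genes. In 5 of the 6 genes with more than 1 probe, the probe means had opposite signs, Esrrb being the exception. The median of the 10 genes was 0.08, against 0.00 for all measured genes, whose means had an SD of 0.14 and a range from the 5th to the 95th percentile of −0.16 to 0.19. Ppargc1a, Ppargc1b and Tfam lay above that range and the other 7 genes inside it. The range is over genes of all intensities, however. Among genes near Tfam's own intensity, 7.38% had a mean at least as high as Tfam. The same share was 4.88% for Tfb1m and 95.8% for Nrf1. Tfam read −0.04 on array 1 and 0.45 on array 2.

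**Figure D4:**
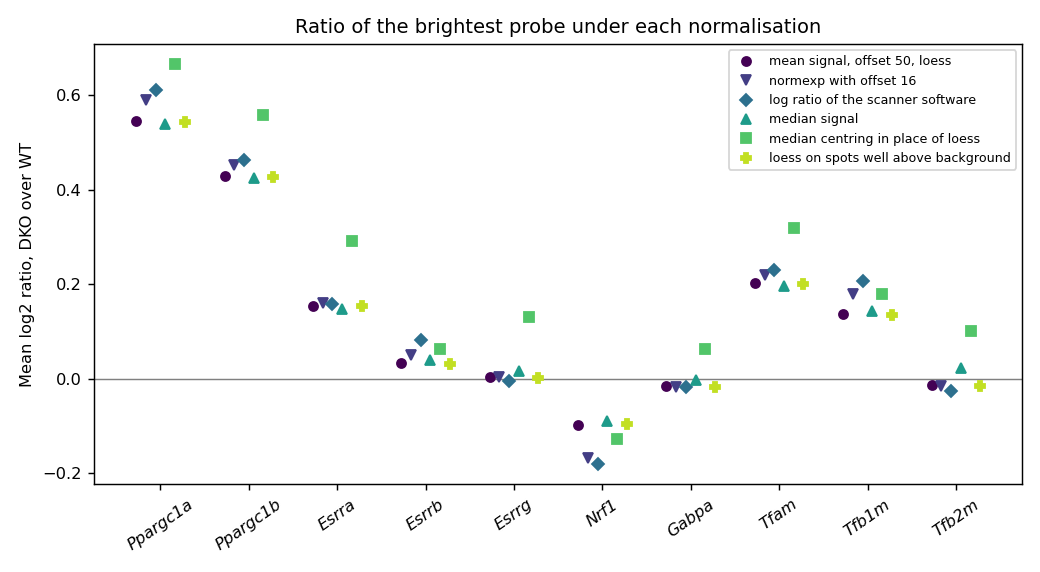
Mean log2 ratio of DKO over WT of each gene's brightest probe under 6 ways of making the ratio from the same 2 arrays. Ppargc1a stays between 0.54 and 0.67 and Ppargc1b between 0.43 and 0.56, Nrf1 stays below 0, and Esrrg, Gabpa and Tfb2m lie on both sides of 0.

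Genes upstream of PGC-1 alpha and its cofactors (kinases such as AMPK, the deacetylase Sirt1, CREB coactivators, corepressors) were taken as a list of 36, of which 31 were measured. None was called. On both arrays alike, 6 (19.4%) stood above 0 and 9 (29.0%) below it, against 19.1% and 19.2% of all measured genes. The list's median was −0.02. The brightest were the CREB coactivator Crtc3 at −0.05 ± 0.01 and Stk11, the kinase that activates AMPK, at 0.03 ± 0.38. Among those below 0 on both arrays, named after their values were seen, were the AMPK subunit genes Prkaa2 (−0.23 ± 0.06) and Prkab1 (−0.19 ± 0.10) and the AMPK kinase Camkk2 (−0.46 ± 0.25). The other measured AMPK subunit genes, Prkab2 (−0.10 ± 0.15), Prkag1 (−0.03 ± 0.43) and Prkag2 (0.02 ± 0.18), changed sign between the arrays, so the subunits had no shared direction.

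Partners of the nuclear respiratory factors were measured for 12 of 13 genes, with none called and a median of 0.01. On both arrays, 2 (16.7%) stood above 0 and 3 (25.0%) below it, against 19.1% and 19.2% of all measured genes. Gabpb1, the subunit with which Gabpa forms GABP, read −0.06 ± 0.08. The brightest of this list were the transcription factor Nfe2l1 (−0.10 ± 0.02) and the dynein light chain Dynll1, a binding partner of NRF1 (0.04 ± 0.26).

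Alongside Tfam, 29 of 34 genes of mitochondrial DNA replication and transcription were measured. None was called and the list's median was 0.02. On both arrays, 8 genes (27.6%) stood above 0 and 4 (13.8%) below it, against 19.1% and 19.2% of all measured genes. Polrmt, the mitochondrial RNA polymerase that Tfb2m serves, read 0.10 ± 0.16. The DNA polymerase subunit Polg read 0.03 ± 0.12, and the DNA-binding protein Ssbp1 read −0.01 ± 0.06. Hsd17b10, a subunit of mitochondrial RNase P, had the highest mean at 0.86 ± 0.36, 1.81-fold, below the size rule. Mrpl12, a ribosomal protein that also binds the polymerase, swung from −0.65 to 0.53 between the arrays. Of the list of 15 mitochondrially encoded transcripts, no gene matched a probe, so the transcripts that Tfam, Tfb1m and Tfb2m serve were not measured here.

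Genes of mitochondrial import, chaperones and dynamics were measured for 26 of 27, with none called and a median of 0.01. On both arrays, 3 (11.5%) stood above 0 and 3 (11.5%) below it, against 19.1% and 19.2% of all measured genes. Hspd1, the matrix chaperonin, read 0.10 ± 0.15, and Grpel1, the exchange factor of the matrix Hsp70, read 0.03 ± 0.26.

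Known targets of the estrogen-related receptors and PGC-1 had a median above that of the regulators, 0.21 against 0.08. Of 36 measured genes in a list of 37, 4 rose by the size rule, against 0.17% of all measured genes, none fell and 32 did not pass. The 4 were Ckmt2, the mitochondrial creatine kinase of muscle (1.42 ± 0.28), Pdk4, the kinase that holds back pyruvate oxidation (1.34 ± 0.11), the glycerol kinase gene Gk (1.02 ± 0.24) and the myoglobin gene Mb (1.004 ± 0.39). In signal, Pdk4 read 84578 in DKO and 30876 in WT on array 1, and 101558 in DKO and 42189 in WT on array 2, so both DKO readings lay above both WT readings. On both arrays alike, 21 of the 36 genes (58.3%) stood above 0 and none below it. The median was 0.21 (0.22 on array 1 and 0.20 on array 2). The list is bright, with 32 of its genes at an average log2 intensity of at least 9. Of those 32, 2 passed the size rule (Pdk4 and Mb) and 19 lay above 0 on both arrays, against 0.723% and 21.7% of the 2076 measured genes that bright, whose median was 0.01. The target list was chosen with earlier results of these data known, so these shares describe it and are no independent comparison.

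The target list was uneven. Further genes named after their values were seen were Fabp3, a fatty acid carrier (0.84 ± 0.14), Ucp1 (0.73 ± 0.00), the medium-chain acyl-CoA dehydrogenase gene Acadm (0.46 ± 0.09) and the succinate dehydrogenase gene Sdhb (0.28 ± 0.07). Each was above 0 on both arrays without passing the rule. The citrate synthase gene Cs (−0.13 ± 0.51), Cycs for cytochrome c (0.08 ± 0.38) and Mfn2 for mitochondrial fusion (−0.16 ± 0.37) changed sign between the arrays.

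**Figure D5:**
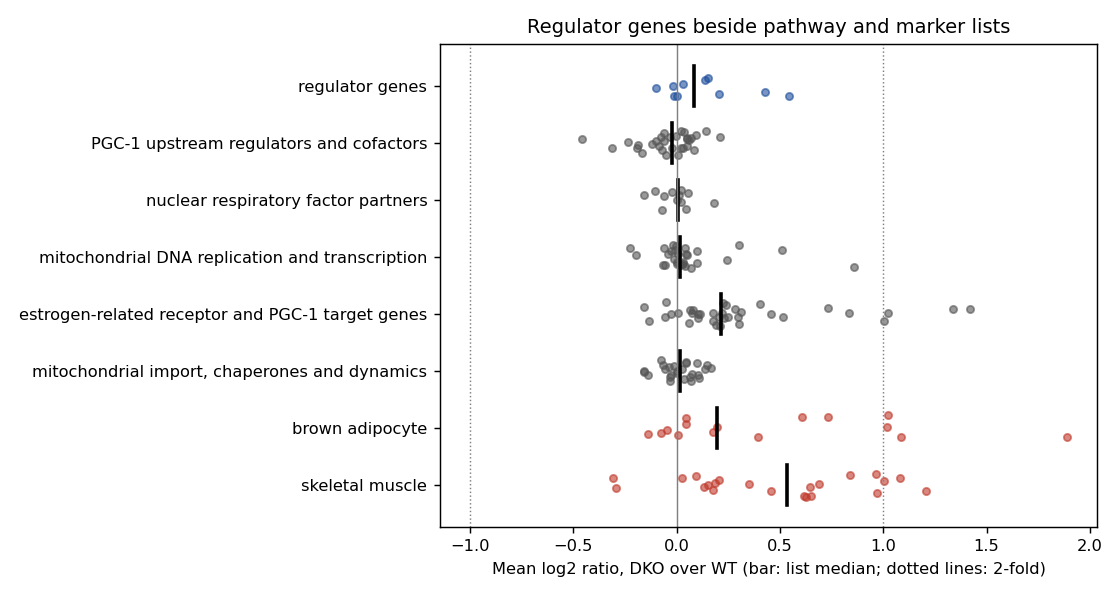
Mean log2 ratio of DKO over WT for the 10 regulator genes, the measured genes of 5 pathway lists and the brown adipocyte and skeletal muscle markers, with each list's median as a bar and the 2-fold lines dotted. The target genes (median 0.21), the brown adipocyte markers (0.19) and the muscle markers (0.53) sit right of 0, and the 4 other pathway lists have medians from −0.02 to 0.02.

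Markers of skeletal muscle also had a median above 0. Ppargc1a, the estrogen-related receptors and several of the targets, Ckmt2, Mb, Pdk4 and Fabp3 among them, are also expressed in muscle. Of 22 measured muscle markers in a list of 23, 3 rose by the rule (Eno3 at 1.21 ± 0.33, Myom2 at 1.08 ± 0.07 and Mb), against 0.17% of all measured genes. On both arrays, 14 (63.6%) stood above 0 and 1 (4.55%) below it, against 19.1% and 19.2% of all. Of the 11 muscle markers at an average log2 intensity of 9 or more, 3 rose and 9 lay above 0 on both arrays, against 0.723% and 21.7% of genes that bright. The median of the 22 markers was 0.53 (0.28 on array 1 and 0.74 on array 2). Their summed signal was 322528 in DKO and 235283 in WT on array 1, and 416989 in DKO and 235944 in WT on array 2. Each of the 22 was well above background on both arrays in DKO or in WT, but not necessarily in both genotypes. The part of muscle RNA in the ratios of Ppargc1a and the target list was not tested. Without Mb, the gene that both lists hold, the target median was 0.21. Leaving out 1 of 36 genes can hardly move a median, and Ckmt2, Pdk4 and Fabp3 stayed in. That value is therefore no test of the part of muscle RNA. The 1 marker below 0 on both arrays was Myh7, the slow fibre myosin (−0.31 ± 0.16).

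Brown adipocyte markers had a median of 0.19, or 0.29 without Cidea, a lipid droplet gene that was saturated on an array and was the 1 marker below 0 on both arrays. Of the 15, 10 stood above 0 on both arrays (19.1% of all measured genes) and 4 rose (0.17% of all): Dio2, the deiodinase that activates thyroid hormone (1.89 ± 0.32), Slc27a2 (1.09 ± 0.10), Gk and Elovl3 (1.02 ± 0.02). Of the 8 at an average log2 intensity of 9 or more, 2 rose and 5 lay above 0 on both arrays, against 0.723% and 21.7% of genes that bright. Ucp1, Gk, Cox7a1 and Cox8b are in the target list too, so the lists are not separate evidence. The marker lists were also chosen with earlier results of these data known. General adipocyte markers had a median of 0.00 over 11 genes. Medians were 0.02 for 10 macrophage markers, 0.00 for 9 endothelial, −0.13 for 6 erythroid, −0.04 for 7 nerve and Schwann cell and −0.11 for 8 fibroblast markers, with none called in any of these lists.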

How the data were processed

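Per the labels, the authors extracted the scans with Agilent Feature Extraction 7.5. The deposited spot files hold signal intensity (linear), raw for the mean, median and background signals and dye-normalised by the software for the processed signals, per the file headers. They also hold the software's log10 ratio of red over green with its error, per the file headers. The series value table, as deposited, gives log2 ratios. They equalled the software's red over green within 0.001 for 40962 of 41001 and 41101 of 41141 values, and each had a median of 0. The labels also name Rosetta Resolver, and its part in that table is not stated there. The labels give 750 ng of cRNA per dye, a hybridisation of 17 h, and a starting RNA of either 500 ng or 100 ng.

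Mean signals were corrected against the median local background (normexp, offset 50), and loess was run within each array, control spots having weight 0, with R 4.3.3 and limma 3.58.1. That offset shrinks the ratios of dim probes. Outlier spots (171 and 29) were left out, replicate spots were averaged, and the sign was turned to DKO over WT before the arrays were averaged. Median local backgrounds of the 4 channels were 57 to 72 under median signals of 107 to 130. The number of arrays, 2, limits the precision. A gene was represented by its brightest measured probe, a measured probe being well above background in a genotype on both arrays. Probe names were resolved through the RefSeq table of GRCm38.p6: 10058 by symbol, 9865 by accession, 936 by an older symbol, while 20315 kept their file name.

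The members and lists were chosen with earlier results of these data known. Named genes were every probe of the 10 members, Rora, and in each list up to 4 called genes or else the 2 brightest; Gabpb1, Polrmt, Polg, Ssbp1, Myh7, Cidea and 3 AMPK subunit genes were added outside that rule, and others are marked as named after their values were seen. One further gene that this naming covers is left out here. Alternatives were an offset of 16, the software's ratios, the value table, median signals, median centring, loess on detected spots, the mean of all probes, other size thresholds and each array alone. Steps were tested on simulated arrays and run with pandas 2.3.3, numpy 2.4.6 and matplotlib 3.10.9 in Python 3.11.15.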

Additional observations from a re-analysis of the deposited data

How the results depend on the processing

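Among single probes, Ppargc1a and Ppargc1b were above 0 in all 8 settings, the 2 single arrays included (0.52 to 0.67 and 0.21 to 0.65), and Nrf1 below 0 in all 8 (−0.18 to −0.03). On single arrays the brightest probes ran from −0.25 to 0.55 for Esrra, from −0.04 to 0.45 for Tfam and from −0.27 to 0.24 for Tfb2m. No gene of the 10 passed the size rule on both arrays or on either alone; the error-based rule, added after the data were seen, called 1 as higher. The median of the 10 genes was 0.12 from the software's ratios or the deposited value table, 0.16 with median centring, 0.0603 with the mean of all probes, and 0.0377 to 0.0718 on single arrays. Median centring lifted the median of all genes to 0.05 and that of genes at an average log2 intensity of 9 or more from 0.01 to 0.14, so bright genes stand higher there, and Esrrg, Gabpa and Tfb2m turned or stayed above 0. On single arrays the PGC-1 upstream median ran from −0.11 to 0.0098 and that of the respiratory factor partners from −0.0616 to 0.0039; the error-based rule called 1 upstream gene lower, and median centring turned the upstream median to 0.02. For mitochondrial DNA genes the median was 0.0763 with median centring, and called genes numbered 1 at 1.5-fold, 2 by the error-based rule and 0 to 1 on single arrays. Over all measured genes, the error-based rule called 1.18% higher and 0.951% lower, and the 1.5-fold rule 0.532% higher. At an average log2 intensity of 9 or more, these shares were 3.42%, 2.46% and 2.12%. For the 3-fold rule and single arrays, no such share is given here. The target median was 0.23 with an offset of 16, 0.24 from the software's ratios or the deposited table, 0.36 with median centring, and 0.20 to 0.22 on single arrays. Called targets numbered 0 at 3-fold, 7 by the error-based rule and 2 to 4 on single arrays, 2 being the count on array 1. Apart from the alternatives' own construction, the cause of these shifts was not tested. Dim probes, Nrf1 and the second probes of Esrrb and Tfam above all, are limited by their signal over background. No paired analysis was possible because no test was run with 1 replicate per genotype; each ratio already sets the genotypes against each other within an array.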
